A study of Mus musculus with 48 samples.

Results

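The AP-1 genes examined here are 10 members of the Fos, Jun and related bZIP families, Fos, Fosb, Fosl1, Fosl2, Jun, Junb, Jund, Atf3, Maff and Batf3, out of the 47480 gene symbols in the count tables. They were chosen by name, with earlier results of these data known, and all 10 were found. The cells were C2C12, an established mouse myoblast line whose cells stop dividing and fuse into muscle fibre-like cells during differentiation. RNA was sequenced from 48 libraries in 12 groups of 4: undifferentiated myoblasts or differentiated cells, each with stretched and non-stretched wells, taken at 1 h, at 3 h and at 6 h. All cells of both kinds grew on collagen-coated plates with a flexible bottom. The stretched wells were deformed in repeated cycles and equally in all directions for the stated time, and each time point had non-stretched wells of its own.

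The library names carry codes. Myoblast replicates 7 and 8 carry B27, and replicates 9 and 10 carry B31, except that the stretched replicate 9 at 1 h is titled with B231, which was taken as B31. Differentiated replicates 7 and 8 carry B25 and replicates 9 and 10 carry B28. The stretched differentiated libraries of 1 h are numbered 7, 8, 9 and 4, and number 4 alone carries the code B17. By the study's methods, a myoblast group came from 2 independent experiments that gave 2 samples each. A differentiated group came from more experiments, of which 1 gave 2 samples and the others 1 each. The labels do not say whether the codes stand for experiments. Each myoblast group holds 2 libraries of each code, as do the differentiated groups without B17, unlike the split in the methods. The p-values treat all libraries of a group as independent, so that those within myoblasts rest on 2 experiments.

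AP-1 is a family of transcription factor dimers that form through a leucine zipper. A Fos protein needs a Jun partner to bind DNA, whereas Jun proteins also pair with each other, and the dimers bind the sequence TGANTCA. Fos and Fosb are classical immediate early genes, transcribed within minutes of a stimulus without new protein synthesis, and Fosl1 and Fosl2 encode the Fra proteins, which lack the strong activation domains of Fos and typically follow later. Jun, Junb and Jund are the Jun partners, Atf3 is a stress-induced relative that often represses, Maff is a small Maf protein without an activation domain, and Batf3 is best known from dendritic cells.

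The bases just upstream of the transcription start are shown for Fos, Fosb and Atf3, which passed both limits of the test in at least 1 stage at 1 h, and for Jun and Junb, which did not. Each sequence is the 250 bases before the RefSeq start on mm10 (GRCm38.p6), printed 5′ to 3′ on the strand of the gene, and RefSeq windows were found for 9 of the 10 members. Capitals mark TGACG, the core of the cyclic AMP response element, on either strand (CGTCA where it lies on the opposite one) and the Jun-type site TGACATCA.
Fos (chr12:85473640-85473889, plus strand): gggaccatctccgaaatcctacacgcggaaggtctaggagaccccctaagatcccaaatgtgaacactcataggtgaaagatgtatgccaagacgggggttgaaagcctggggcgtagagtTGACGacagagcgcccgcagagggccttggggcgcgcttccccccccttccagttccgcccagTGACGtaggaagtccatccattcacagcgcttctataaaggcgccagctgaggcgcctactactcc
Fosb (chr7:19310046-19310295, minus strand): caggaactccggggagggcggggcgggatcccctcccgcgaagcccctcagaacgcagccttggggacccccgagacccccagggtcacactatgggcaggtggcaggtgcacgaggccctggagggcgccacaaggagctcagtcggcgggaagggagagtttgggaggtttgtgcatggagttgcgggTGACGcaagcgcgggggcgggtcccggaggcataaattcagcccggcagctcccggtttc
Atf3 (chr1:191183334-191183583, minus strand): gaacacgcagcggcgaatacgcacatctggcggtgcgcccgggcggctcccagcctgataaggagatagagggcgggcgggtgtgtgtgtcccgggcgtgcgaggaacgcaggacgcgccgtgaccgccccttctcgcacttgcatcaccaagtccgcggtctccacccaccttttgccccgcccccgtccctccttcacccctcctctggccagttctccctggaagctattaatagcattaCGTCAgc
Jun (chr4:95052223-95052472, minus strand): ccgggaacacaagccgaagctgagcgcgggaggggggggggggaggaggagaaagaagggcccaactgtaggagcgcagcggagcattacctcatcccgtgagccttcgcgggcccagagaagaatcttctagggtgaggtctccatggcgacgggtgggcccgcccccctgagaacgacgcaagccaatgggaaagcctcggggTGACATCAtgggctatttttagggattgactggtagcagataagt
Junb (chr8:84978749-84978998, minus strand): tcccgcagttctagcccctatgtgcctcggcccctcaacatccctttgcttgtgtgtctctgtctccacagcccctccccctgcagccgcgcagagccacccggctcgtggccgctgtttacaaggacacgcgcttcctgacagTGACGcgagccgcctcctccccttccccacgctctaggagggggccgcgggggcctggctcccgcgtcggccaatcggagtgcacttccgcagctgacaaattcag
The core TGACG lies 66 to 62 and 129 to 125 bases before the start of Fos, 60 to 56 before that of Fosb, 106 to 102 before that of Junb and, on the opposite strand, 7 to 3 before that of Atf3. Of the 32851 windows of this length in the table, 17.8% hold TGACG on either strand, so that the match itself is common. Jun has no TGACG but holds TGACATCA 45 to 38 bases before its start, a site found in 2.93% of windows. No TGANTCA (6.75% of windows), no full TGACGTCA (1.55%) and no CArG box, the binding sequence of serum response factor (1.47%), occurs in these 5 windows. Only exact matches within the 250 bases were sought, so sites farther upstream or of looser sequence are not covered. Of the members not printed here, Maff holds the full TGACGTCA 29 to 22 bases before 1 of its RefSeq starts and TGACATCA 45 to 38 bases before another. The windows of Fos and Junb hold no annotated exon or gene, that of Jun lies within the antisense gene Junos but holds no exon of it, and those of Fosb and Atf3 reach 6 and 7 bases into the annotated exons of these genes. The annotated Atf3 gene reaches farther upstream, to chr1:191218039, so its window precedes a start inside the gene. The bases before that outer end are not shown.

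The libraries hold between 48447318 and 77080730 counts. The summed level of 5 genes of differentiated muscle (Myog, Ckm, Acta1, Tnnt1 and Mef2c) was 6.01 to 12.6 CPM (counts scaled to library size) in the myoblast libraries and 5157 to 6799 CPM in the differentiated ones, as labelled. Cell cycle genes (Mki67, Top2a and Ccnb1) summed to 1185 to 1548 CPM in myoblasts and to 168 to 511 CPM in differentiated cells. Each of 9 markers of fat, bone, endothelium and leukocytes was below 1 CPM in every library. In bulk RNA, fewer cells of a type and less RNA per cell cannot be told apart. No more than 0.0622% of the 31-base stretches in the transcripts of any member occur in a transcript of another gene. Each transcript was read in its own direction only, so this share does not cover overlaps with genes on the opposite strand. Fosl1, Jun, Junb, Jund and Atf3 overlap a gene on the opposite strand (Ccdc85b, Junos, Prdx2, Gm11175 and Gm24748). Since the strand setting of the counting is not given in the sources used here, reads of the overlap cannot be assigned with certainty.

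In the non-stretched cells the Fos family had a different make-up in each stage. To compare genes, CPM was divided by the length of the principal transcript in kb, and a member's share is its part of the summed CPM per kb of the 4 Fos genes. In non-stretched myoblasts at 1 h, Fosl1 held 82.1% ± 0.877 (SD, n = 4) of the Fos family, Fosl2 16.7% ± 0.847, Fos 0.659% ± 0.067 and Fosb 0.532% ± 0.066. In non-stretched differentiated cells at 1 h, Fosl2 held 71.6% ± 1.38, Fosl1 19.5% ± 1.65, Fos 7.55% ± 1.02 and Fosb 1.40% ± 0.123. The summed level of the family was 108.1 ± 7.62 CPM per kb in the former and 36.8 ± 0.953 in the latter, from tables that were scaled separately. These shares are descriptions without a test.

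The Jun family was more even. Jund held 42.5% ± 2.18 of its summed CPM per kb in non-stretched myoblasts at 1 h and 42.2% ± 1.34 in differentiated cells (SD, n = 4 each). Jun held 30.8% ± 1.53 and 17.1% ± 0.593, and Junb 26.8% ± 0.832 and 40.7% ± 1.01, in the same order of stages. Per length, Jund was the highest of the 9 measured members in non-stretched myoblasts at 1 h, with 110.6 ± 13.4 CPM per kb, followed by Fosl1 (88.8 ± 7.13), Jun (79.7 ± 2.40) and Junb (69.5 ± 4.30), where the SDs of Fosl1 and Jun reach into each other and that of Jund reaches neither. In differentiated cells, Jund (130.5 ± 10.7 CPM per kb) and Junb (125.8 ± 5.55) were closer together than their spread, and Jun followed with 52.9 ± 0.999.

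**Figure D1:**
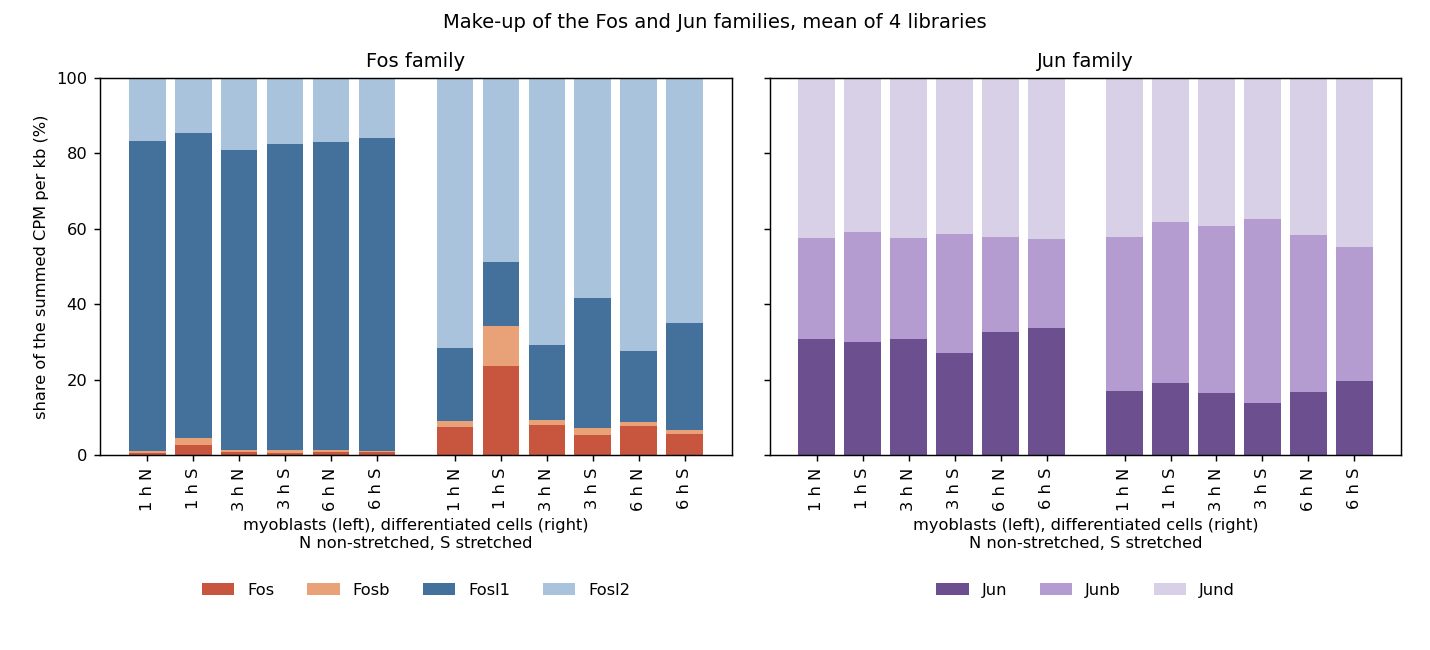
Make-up of the Fos family (left panel) and the Jun family (right panel) as the share in percent of the summed CPM per kb, for each group of 4 libraries; each bar is the mean of the shares, N is non-stretched and S stretched. Fosl1 fills 79.6% to 83.0% of the Fos bars in myoblasts and Fosl2 71.6% of the bar of non-stretched differentiated cells at 1 h. Fos and Fosb are widest in the stretched differentiated bar at 1 h, which includes replicate 4.

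In stretched cells the parts of Fos and Fosb were larger at 1 h and, in differentiated cells, that of Fosl1 at 3 h and later. In differentiated cells at 1 h, Fos held 23.6% ± 8.61 of the stretched Fos family and Fosb 10.6% ± 2.78 (SD, n = 4). These means include replicate 4, where Fos was at 41.2 CPM per kb, against 9.42, 10.2 and 14.6 in replicates 7, 8 and 9. At 3 h the share of Fosl1 was 34.4% ± 2.99 in stretched and 19.9% ± 1.66 in non-stretched differentiated cells, and at 6 h it was 28.3% ± 0.491 and 18.6% ± 0.639. In stretched myoblasts, Fos reached 2.61% ± 0.362 and Fosb 2.01% ± 0.391 at 1 h, and Fosl1 stayed between 80.7% and 83.0% in the stretched groups.

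The effect of stretching at each time was tested with edgeR (quasi-likelihood, 4 against 4 libraries) over all genes. Calls needed both an adjusted p-value (Benjamini-Hochberg) below 0.05 and an absolute log2 fold change of 0.58 or more. Batf3 was too low to be tested in these comparisons, which leaves 9 members. In myoblasts, 3 of 9 members were called upregulated at 1 h (Fos, Fosb and Atf3), against 0.254% of all genes tested, 1 at 3 h (Fosb), against 0.459%, and 0 at 6 h, against 1.35%. DESeq2 also called 0 members at 6 h, where 3 had an unadjusted edgeR p-value under 0.05. In differentiated cells, 2 members were called upregulated at 1 h (Fos and Fosb), against 0.0901% (3 with Atf3 when replicate 4 was left out, against 0.172%, or with the code as a covariate), 3 at 3 h (Fosb, Fosl1 and Atf3), against 0.89%, and 1 at 6 h (Fosl1), against 0.518%. No member was called downregulated in any of the 6 comparisons by edgeR or by DESeq2, where edgeR called 0.997%, 1.25% and 0.823% of all genes in myoblasts, in the order of the times, and 0.18%, 0.741% and 1.52% in differentiated cells. With an unadjusted edgeR p-value under 0.05, 2 members were lower at 3 h in each stage, and 4 were lower in differentiated cells at 6 h. The share of all genes at an unadjusted p-value was not worked out for any comparison, so counts at that limit stand without a background.

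Smaller changes were common at the later times, for the members and for all genes alike. Without the limit on the fold change, 5 members had a positive and 1 a negative effect with an edgeR adjusted p-value under 0.05 in myoblasts at 3 h, where 16% and 15.8% of all genes did. In differentiated cells at 3 h it was also 5 and 1, against 10.8% and 11.4%, and at 6 h 3 and 3, against 11.5% and 10.8%. At 1 h the numbers were 4 and 0 in myoblasts, against 1.67% and 4.24%, and 3 and 0 in differentiated cells, against 0.193% and 0.47%. In myoblasts at 6 h, 3 members had a positive and 0 a negative effect, against 14.1% and 13%.

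The libraries of the stretched and non-stretched groups were also compared one by one. In differentiated cells at 1 h, all 4 stretched libraries were above all non-stretched ones for 7 of the 9 members, where this was so for 2.68% of all genes, and in myoblasts at 1 h for 5, against 5.23%. The later counts were 5 members in myoblasts at 3 h, against 14.6%, and 3 at 6 h, against 14.6%, and in differentiated cells 3 at 3 h, against 12.7%, and 2 at 6 h, against 14%. The stretched libraries were all lower for 2 members in myoblasts at 3 h (Fos and Jun), against 16.4% of all genes, for 1 in differentiated cells at 3 h (Fos), against 13.4%, and for 3 in differentiated cells at 6 h (Fos, Fosl2 and Junb), against 12.4%.

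**Figure D2:**
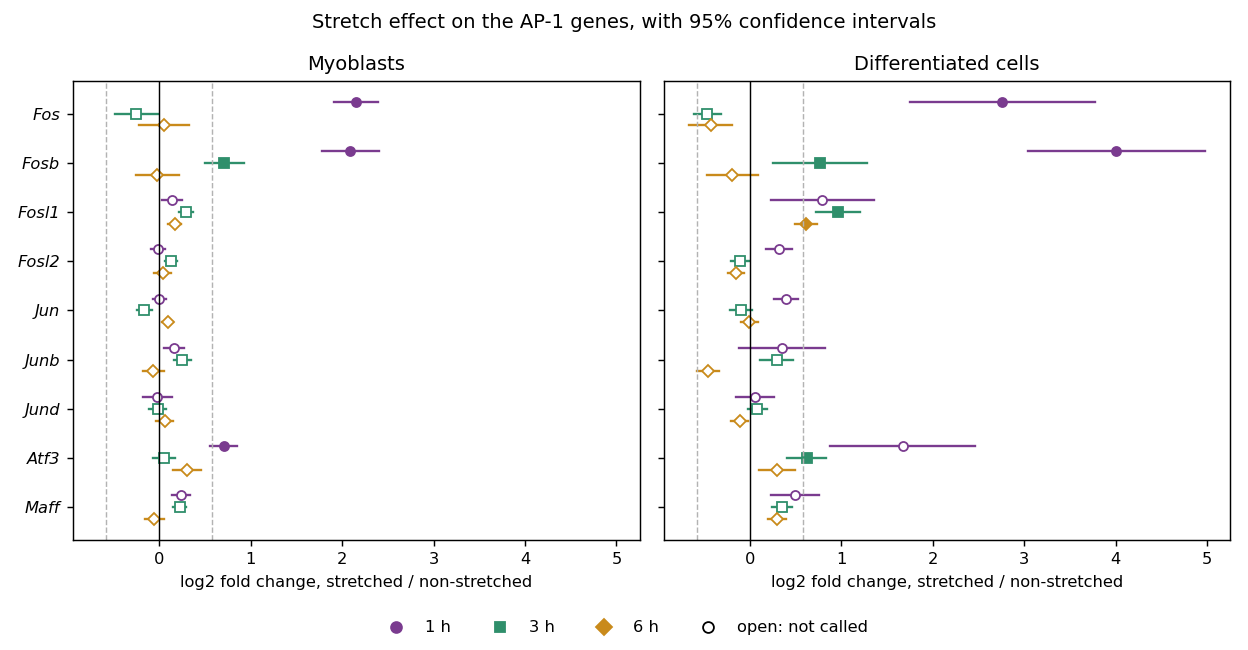
Log2 fold change of stretched over non-stretched cells (x axis) for the 9 tested members (y axis) at 1 h, 3 h and 6 h, from edgeR on 8 libraries each, with 95% confidence intervals as lines; filled symbols were called, and the dashed lines mark a log2 fold change of 0.58 in either direction. The effects of Fos and Fosb at 1 h lie far to the right in both panels (2.16 and 2.09 in myoblasts, 2.76 and 4.01 in differentiated cells), and most other symbols lie between the dashed lines.

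Fos, the founding member (chr12:85473890-85477273, mm10), rose briefly. In myoblasts at 1 h, the non-stretched libraries of replicates 7, 8, 9 and 10 had 1.52, 1.62, 1.53 and 1.31 CPM, and the stretched ones 5.97, 5.92, 7.14 and 7.62 CPM. All stretched libraries lay above all non-stretched ones, and the log2 fold change was 2.16 (SE 0.11, edgeR adjusted p = 1.51e-06). By 3 h the order had turned: the stretched libraries had 1.61, 1.69, 1.64 and 1.36 CPM and the non-stretched ones 1.91, 1.97, 1.91 and 1.76 CPM. The groups did not overlap here either, but the log2 fold change of -0.25 (SE 0.11) did not pass the test (edgeR adjusted p = 0.1). With 72 to 117 counts in these libraries, the counting error of a library was about 10% in each group, no smaller than the replicate CV of 9.33% and 4.66%. At 6 h, the groups overlapped at 1.49 to 2.01 CPM stretched and 1.48 to 1.87 CPM non-stretched.

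Differentiated cells, which had more Fos without stretching, also had a raised level at 1 h, followed by a lower one than in non-stretched cells at both later times. At 1 h the non-stretched replicates 7, 8, 9 and 10 had 6.81, 5.47, 5.42 and 5.68 CPM of Fos, and the stretched replicates 7, 8 and 9 had 19.9, 21.6 and 30.7 CPM, whereas replicate 4 had 86.9 CPM. The log2 fold change was 2.76 (SE 0.45, edgeR adjusted p = 0.0302) over all 8 libraries and 2.04 (SE 0.15, edgeR adjusted p = 0.00019) without replicate 4. With the full group, the call was lost when any 1 of the 4 non-stretched libraries or stretched replicate 8 was left out, with edgeR adjusted p-values of 0.059 to 0.124. After 3 h all 4 stretched libraries (4.98, 4.51, 4.57 and 4.22 CPM) were below the non-stretched ones (6.50, 6.09, 6.44 and 6.23 CPM), with a log2 fold change of -0.46 (SE 0.07, edgeR adjusted p = 0.00109) that lies within the limit of 0.58. At 6 h the same held, with 3.48 to 4.65 CPM against 5.13 to 6.20 CPM (log2 fold change -0.43, SE 0.11, edgeR adjusted p = 0.0161).

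Fosb (chr7:19302696-19310051), whose protein also pairs with Jun, rose at 1 h and was still called at 3 h in both stages. In myoblasts at 1 h it was at 2.39, 2.03, 1.82 and 2.46 CPM in the non-stretched and at 7.73, 8.04, 11.6 and 9.52 CPM in the stretched replicates 7, 8, 9 and 10 (log2 fold change 2.09, SE 0.14, edgeR adjusted p = 1.47e-05). Stretched myoblasts at 3 h still had 2.66 to 3.08 CPM against 1.63 to 1.95 CPM, without overlap (log2 fold change 0.71, SE 0.10, edgeR adjusted p = 0.00015), and at 6 h the log2 fold change was -0.02 (SE 0.11). Fosb was the only member called in myoblasts at 3 h.

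The largest effect of any member was that of Fosb in differentiated cells at 1 h. The 4 non-stretched libraries had 2.12, 1.93, 1.93 and 1.82 CPM, the stretched replicates 7, 8 and 9 had 21.5, 18.6 and 20.8 CPM, and replicate 4 had 65.0 CPM. The log2 fold change was 4.01 (SE 0.43, edgeR adjusted p = 0.00642), and 3.38 (SE 0.08, edgeR adjusted p = 8.95e-08) without replicate 4. After 3 h the stretched libraries had 2.76, 2.06, 4.93 and 3.45 CPM and the non-stretched ones 2.14, 1.81, 2.20 and 1.67 CPM, so that the groups overlapped. The log2 fold change of 0.77 (SE 0.23, edgeR adjusted p = 0.0377) fell to 0.49 (edgeR adjusted p = 0.0783) without stretched replicate 9, and the call was lost in 6 of the 8 fits that left out a library and in the fit over all 24 libraries of the stage (edgeR adjusted p = 0.127).

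**Figure D3:**
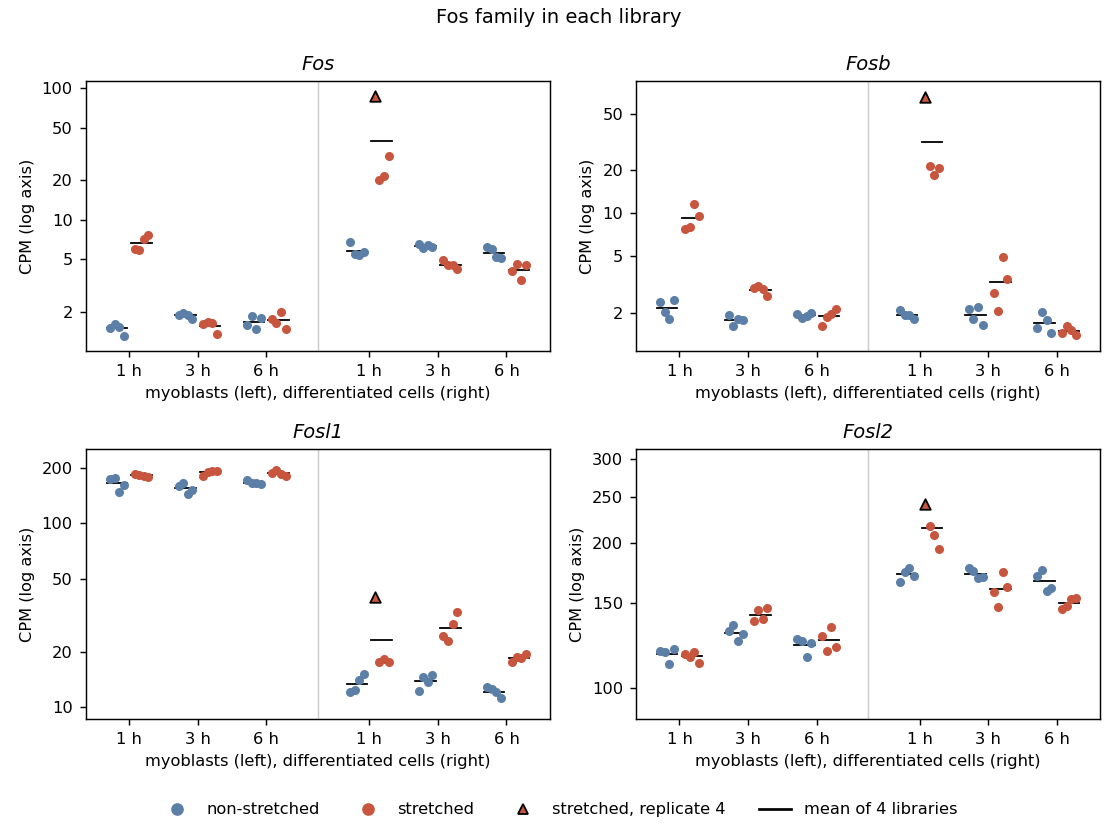
Level of the 4 Fos family genes in every library, in CPM on a log axis, at 1 h, 3 h and 6 h in myoblasts (left of the grey line) and differentiated cells (right); circles are libraries, the triangle is stretched replicate 4 at 1 h, and black lines are means of 4. Fos and Fosb stand apart at 1 h in both stages, and Fosl1 of stretched differentiated cells lies above the non-stretched libraries at each time.

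Fosl1 (chr19:5447547-5455946), which encodes Fra-1, was called at both later times in differentiated cells. At 1 h its stretched libraries had 17.6, 18.3 and 17.6 CPM in replicates 7, 8 and 9 and 39.7 CPM in replicate 4, against 12.03, 12.4, 14.0 and 15.1 CPM without stretching. The groups did not overlap, but the log2 fold change of 0.79 (SE 0.25) did not pass the test (edgeR adjusted p = 0.273), whereas the fit over all 24 libraries of the stage called it (edgeR adjusted p = 0.0144). Without replicate 4 it was 0.41 (SE 0.08, edgeR adjusted p = 0.0471).

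At 3 h, Fosl1 in stretched differentiated cells rose to 24.4, 22.8, 28.5 and 32.8 CPM in replicates 7, 8, 9 and 10, where the non-stretched ones had 12.3, 14.6, 13.7 and 14.97 CPM (log2 fold change 0.96, SE 0.11, edgeR adjusted p = 0.000301). At 6 h it was at 17.6, 18.8, 18.6 and 19.6 CPM against 12.9, 12.5, 12.1 and 11.2 CPM (log2 fold change 0.61, SE 0.05, edgeR adjusted p = 0.000188), and left the limit of 0.58 only without non-stretched replicate 10, at 0.576. Again every stretched library was above every non-stretched one.

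In myoblasts, where it is far more abundant, Fosl1 changed less. Its mean was 182 ± 3.67 CPM in stretched and 165.5 ± 13.3 CPM in non-stretched myoblasts at 1 h (log2 fold change 0.14, SE 0.05, edgeR adjusted p = 0.156), 189 ± 6.20 and 155 ± 8.44 CPM at 3 h (0.29, SE 0.04, edgeR adjusted p = 8.23e-05), and 187 ± 6.12 and 167 ± 3.57 CPM at 6 h (0.17, SE 0.03, edgeR adjusted p = 0.00254), each SD with n = 4. The groups did not overlap at any of the 3 times, and no effect reached the limit of 0.58.

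Fosl2 (chr5:32135801-32157842), the gene of Fra-2, moved by small steps. Differentiated cells at 1 h had it at 242, 217, 208 and 194 CPM in stretched replicates 4, 7, 8 and 9 and at 166 to 177 CPM in the non-stretched libraries (log2 fold change 0.32, SE 0.06, edgeR adjusted p = 0.0629). Without replicate 4 the log2 fold change was 0.26 (SE 0.05, edgeR adjusted p = 0.0340). At 6 h the stretched libraries lay below the others, at 146 to 154 against 159 to 176 CPM (log2 fold change -0.15, SE 0.04, edgeR adjusted p = 0.0194). In myoblasts the effect passed the adjusted p-value only at 3 h, with a log2 fold change of 0.13 (SE 0.03, edgeR adjusted p = 0.00578).

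Jun (chr4:95049034-95052222), the main partner of Fos, showed no large change. Of the differentiated cells at 1 h, the stretched replicates 4, 7, 8 and 9 had 249, 212, 217 and 210 CPM and the non-stretched replicates 167, 167, 168 and 174 CPM. The groups were well apart, with a log2 fold change of 0.39 (SE 0.06, edgeR adjusted p = 0.0228), or 0.33 (SE 0.03, edgeR adjusted p = 0.00254) without replicate 4. In myoblasts at 1 h the means were 254 ± 4.76 CPM stretched and 254 ± 7.65 CPM non-stretched (log2 fold change 0.00, 95% confidence interval -0.07 to 0.07). At 3 h Jun was lower in stretched myoblasts, at 206 to 228 against 237 to 264 CPM (log2 fold change -0.16, SE 0.04, edgeR adjusted p = 0.00616), and at 6 h slightly higher, at 263 to 278 against 251 to 259 CPM (0.09, SE 0.03, edgeR adjusted p = 0.0260).

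Junb (chr8:84974484-84978718), whose protein often opposes Jun, changed sign with time in differentiated cells. At 1 h replicate 4 alone was high: it had 466 CPM, and stretched replicates 7, 8 and 9 had 222, 238 and 237 CPM, within or just above the range of the non-stretched libraries of 216 to 237 CPM. The log2 fold change was 0.35 (SE 0.21, edgeR adjusted p = 0.735) with replicate 4 and 0.03 (SE 0.05, edgeR adjusted p = 1.00) without it. By 3 h the stretched libraries had 267 to 361 CPM and the non-stretched ones 241 to 271 CPM (log2 fold change 0.29, SE 0.08, edgeR adjusted p = 0.0251), and at 6 h 167 to 180 against 216 to 260 CPM, without overlap (-0.46, SE 0.06, edgeR adjusted p = 0.000699). In myoblasts Junb was 0.25 higher on the log2 scale at 3 h (SE 0.04, edgeR adjusted p = 0.00082), and its effects at 1 h (0.16, SE 0.05) and 6 h (-0.06, SE 0.05) did not pass the test.

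Jund (chr8:70698949-70700616), usually the constant member of the family, did not pass the test in any of the 6 comparisons. Its log2 fold changes lay between -0.11 and 0.08, and their 95% confidence intervals, from -0.20 to 0.26 at the outermost, leave room only for small changes. Replicate 4, which was high for most members, was low for Jund, 0.201 below the non-stretched mean on the log2 scale, whereas replicates 7, 8 and 9 were 0.101, 0.245 and 0.0712 above it.

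**Figure D4:**
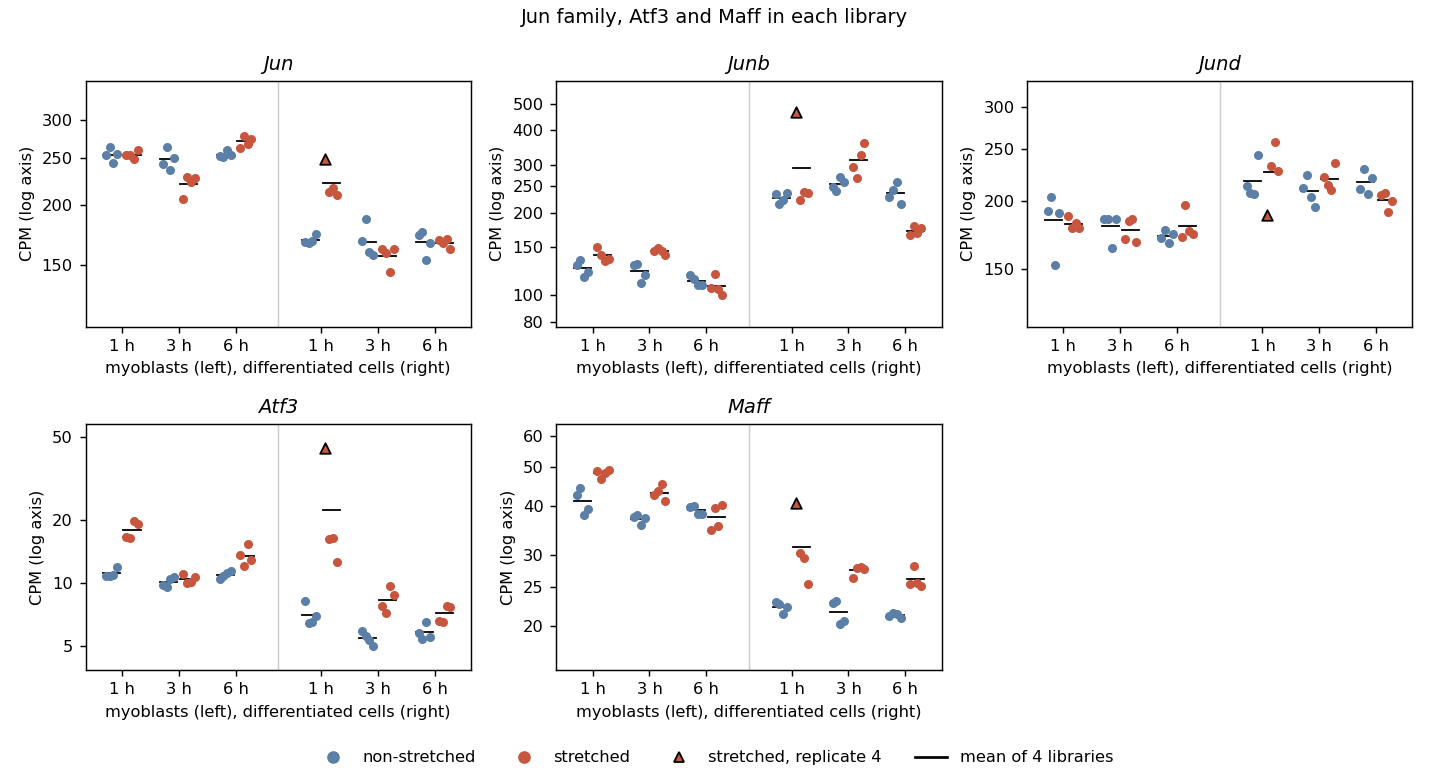
Level of the Jun family genes, Atf3 and Maff in every library, in CPM on a log axis, laid out by stage and time, with circles for libraries, a triangle for stretched replicate 4 at 1 h and black lines for means of 4. Junb of replicate 4 (466 CPM) lies far above the other stretched libraries at 1 h (222 to 238 CPM), while Jun of all 4 stretched libraries lies above the non-stretched ones.

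Atf3 (chr1:191170296-191218039), which responds to many kinds of stress, rose at 1 h in both stages. In myoblasts the non-stretched replicates 7, 8, 9 and 10 had 10.8, 10.8, 10.9 and 11.9 CPM and the stretched ones 16.7, 16.4, 19.9 and 19.2 CPM (log2 fold change 0.70, SE 0.07, edgeR adjusted p = 0.000156). The groups overlapped at 3 h (log2 fold change 0.06, SE 0.06), and at 6 h the stretched libraries were again above the others, at 12.1 to 15.3 against 10.4 to 11.4 CPM (0.30, SE 0.07, edgeR adjusted p = 0.00784). A test of whether the effect exceeds 0.58 (edgeR's glmTreat) did not call Atf3 in myoblasts at 1 h.

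In differentiated cells at 1 h, Atf3 was at 16.3, 16.5 and 12.7 CPM in stretched replicates 7, 8 and 9, at 44.5 CPM in replicate 4, and at 8.16, 6.45, 6.53 and 6.97 CPM without stretching. No libraries overlapped, yet with replicate 4 the log2 fold change of 1.67 (SE 0.36) missed the threshold (edgeR adjusted p = 0.0792), while DESeq2 called it (DESeq2 adjusted p = 0.00732). Without replicate 4 the log2 fold change was smaller, 1.11, with a smaller error (SE 0.11), and it was called (edgeR adjusted p = 0.00221). It was also called with the code as a covariate, where replicate 4 has a level of its own (log2 fold change 1.06, edgeR adjusted p = 0.000204), and in the fit over all 24 libraries of the stage (edgeR adjusted p = 0.000179). After 3 h the stretched libraries had 7.72, 7.15, 9.70 and 8.72 CPM against 5.86, 5.57, 5.32 and 4.98 CPM (log2 fold change 0.62, SE 0.10, edgeR adjusted p = 0.0016). This value was 0.53 without stretched replicate 9 and 0.579 without non-stretched replicate 10, both under the limit of 0.58, and the fit over all 24 libraries of the stage did not call it (edgeR adjusted p = 0.105). At 6 h it was 0.30 (SE 0.09, edgeR adjusted p = 0.0343), with overlapping groups.

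Maff (chr15:79346621-79359076) stayed raised in differentiated cells at all 3 times without reaching the limit. Its stretched libraries had 40.6, 30.4, 29.6 and 25.4 CPM at 1 h in replicates 4, 7, 8 and 9, 26.4 to 28.1 CPM at 3 h and 25.2 to 28.3 CPM at 6 h, whereas the non-stretched ones of the 3 times had 21.4 to 22.9, 20.1 to 23.0 and 20.9 to 21.5 CPM. The groups did not overlap at any time. The log2 fold changes were 0.50 (SE 0.12, edgeR adjusted p = 0.118; 0.35 without replicate 4, edgeR adjusted p = 0.0360), 0.35 (SE 0.05, edgeR adjusted p = 0.000938) and 0.30 (SE 0.04, edgeR adjusted p = 0.0017). In myoblasts they were 0.24 at 1 h (SE 0.05, edgeR adjusted p = 0.0128), 0.22 at 3 h (SE 0.03, edgeR adjusted p = 0.000304) and -0.05 at 6 h (SE 0.05, edgeR adjusted p = 0.455).

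Batf3 (chr1:191097847-191108945) had 2 to 14 counts in the myoblast libraries and 0 to 5 in the differentiated ones. A change in Batf3 was not detectable at this depth, and its mean was at most 0.165 CPM in any group.

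In differentiated cells stretched for 1 h, replicate 4 stood apart across the family. Relative to the mean log2 CPM of the non-stretched libraries, Fos was 3.90 higher in it and 1.77, 1.89 and 2.40 higher in replicates 7, 8 and 9. For Fosb the differences were 5.05 against 3.46, 3.24 and 3.41, for Fosl1 1.57 against 0.399, 0.455 and 0.399, and for Atf3 2.67 against 1.22, 1.24 and 0.857. The median difference of 20 other immediate early genes was 1.61 in replicate 4 and 0.426 to 0.531 in the others, and that of the 3 cell cycle genes was 0.80 in replicate 4 and -0.248 to 0.0615 in the others. Since no other library carries its code, the code and the library cannot be told apart.

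**Figure D5:**
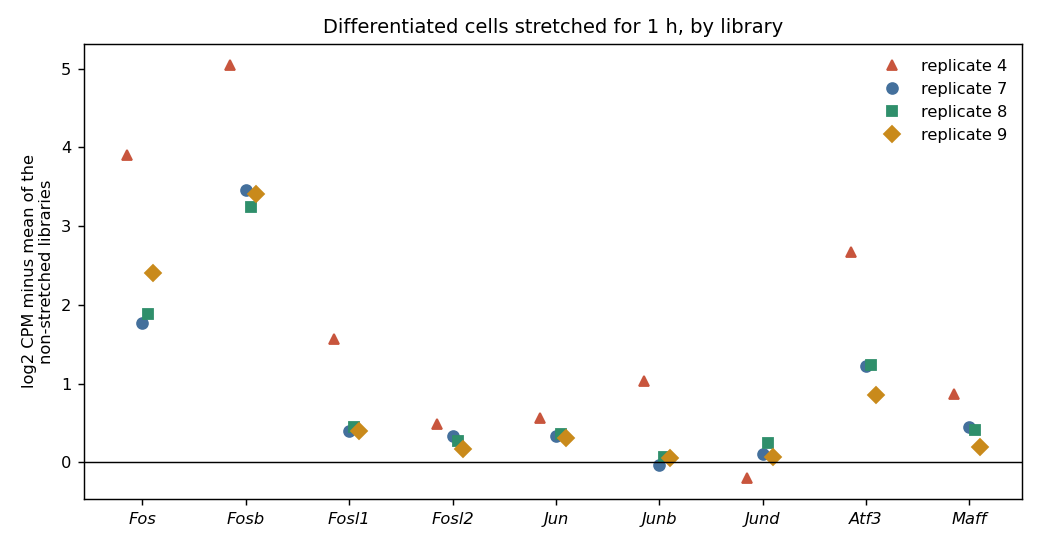
Log2 CPM of each stretched differentiated library at 1 h minus the mean of the 4 non-stretched libraries (y axis) for the 9 tested members (x axis), with 1 symbol for each replicate. Replicate 4 is the highest for 8 of the 9 genes and the lowest for Jund (-0.201).

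The effects on Fos and Fosb at 1 h had the same direction within each code. The differences in mean log2 CPM between stretched and non-stretched myoblasts were 1.91 for Fos in the libraries coded B27 and 2.37 in those coded B31, and 1.83 and 2.30 for Fosb. In differentiated cells they were 1.76 for Fos in B25 (2 stretched libraries) and 2.47 in B28 (1 stretched library), and 3.30 and 3.46 for Fosb. The small differences of Jun and Jund in myoblasts had opposite signs in the codes, with -0.0258 in B27 and 0.0274 in B31 for Jun and -0.11 and 0.083 for Jund.

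Whether the stretch effect changed with time was tested by an interaction term in a model of all 24 libraries of a stage, where a member counted at an edgeR adjusted p-value under 0.05. Batf3 passed the filter in the myoblast model, so that 10 members were tested there and 9 in differentiated cells. In myoblasts, the effect was lower at 3 h than at 1 h for 4 members (Fos, Fosb, Jun and Atf3), against 5.54% of all genes, and lower at 6 h than at 1 h for 5 (Fos, Fosb, Junb, Atf3 and Maff), against 9.42%. The log2 fold change of Fos changed by -2.41 (SE 0.15, edgeR adjusted p = 1.47e-10) from 1 h to 3 h and that of Fosb by -1.38 (SE 0.17, edgeR adjusted p = 4.7e-06). From 3 h to 6 h, the effect of Fosb fell further, by 0.73 (SE 0.18, edgeR adjusted p = 0.00327), and those of Junb and Maff fell too, 3 members against 12.2% of all genes. The effect of Jun rose by 0.26 (SE 0.05, edgeR adjusted p = 0.000221), where 14.3% of all genes had a rise. The changes of Jun from 1 h to 3 h (-0.17) and of Junb from 1 h to 6 h (-0.22) were small and lost their call when single libraries were left out, in 5 and 16 of 24 fits.

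In differentiated cells the effect was lower at 3 h than at 1 h for 4 members (Fos, Fosb, Fosl2 and Jun), against 2.43% of all genes, and lower at 6 h than at 1 h for 6 (these 4, Junb and Atf3), against 5.13%. Fos changed by -3.23 (SE 0.44, edgeR adjusted p = 0.000133) and Fosb by -3.24 (SE 0.47, edgeR adjusted p = 0.000205) from 1 h to 3 h. Jun, whose effect was small throughout, changed by -0.49 (SE 0.08, edgeR adjusted p = 0.000462). From 3 h to 6 h, only the effect of Junb changed, by -0.75 (SE 0.22, edgeR adjusted p = 0.0256), against 5.05% of all genes with a fall, and 4 of 24 fits with a library left out did not call it. With replicate 4 included, no change of the effect on Fosl1 passed the test: from 1 h to 3 h it was 0.17 (95% confidence interval -0.37 to 0.71). This null depends on that library. In the fits of single times, the log2 fold change of Fosl1 was 0.41 at 1 h without replicate 4 and 0.96 at 3 h. In the model of the stage without replicate 4, 1 member had a larger effect at 3 h than at 1 h. The other values of these tests include replicate 4, and the comparisons with 1 h share the libraries of that time.

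The stretch effects of the stages were compared at each time in a model of the 16 libraries of both stages. At 1 h, 0 members and 0% of all genes differed by edgeR, although 5 members had an unadjusted p-value under 0.05, all with the larger effect in differentiated cells. The effect on Fosb was 1.91 larger (95% confidence interval 0.85 to 2.98, edgeR adjusted p = 0.661) and that on Fos 0.60 larger (-0.59 to 1.80). DESeq2 called 2 members at 1 h, Fosl2 and Jun. Without replicate 4, edgeR called Fosb, with a difference of 1.28 (edgeR adjusted p = 0.00958), and Jun, with a difference of 0.33 (edgeR adjusted p = 0.00675).

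The effect at 3 h was larger in differentiated cells for Fosl1 (by 0.66, SE 0.12, edgeR adjusted p = 0.00592) and Atf3 (by 0.56, SE 0.11, edgeR adjusted p = 0.0152), 2 members against 1.13% of all genes. It was lower for Fosl2 (-0.24, SE 0.06, edgeR adjusted p = 0.0408), against 0.658%, but 13 of 16 fits with a library left out did not call this. At 6 h it was larger for Fosl1 (by 0.44, SE 0.06, edgeR adjusted p = 0.000715) and Maff (by 0.34, SE 0.07, edgeR adjusted p = 0.00899), against 2.39% of all genes, and lower for Junb (-0.40, SE 0.08, edgeR adjusted p = 0.0112), against 2.79%. Fosl1 was thus the member whose effect differed between the stages at both later times.

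Time on the plate without stretching changed little. Among the non-stretched myoblasts, Fosl2 was 0.15 higher at 3 h than at 1 h (SE 0.04, edgeR adjusted p = 0.0406), 1 member against 0.988% of all genes, and 10 of 12 fits with a library left out did not call it. Between 6 h and 1 h, 0 members differed by edgeR in myoblasts, against 1.88% of all genes, and 1 had an unadjusted p-value under 0.05. In non-stretched differentiated cells 0 members differed at 3 h (0% of all genes) or at 6 h (0.0123%), and 0 had an unadjusted p-value under 0.05. Between the codes of the non-stretched libraries, Junb was 0.14 lower (SE 0.02, edgeR adjusted p = 0.00262) and Fosl1 0.11 lower (SE 0.03, edgeR adjusted p = 0.0316) in B31 than in B27, 2 members against 2.39% of all genes. Between B28 and B25, 0 of the 9 tested members differed by edgeR, where 17.3% of all genes did and 2 members had an unadjusted p-value under 0.05.

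Other genes around AP-1 were taken as lists. Of 20 other immediate early genes, 6 were called upregulated in myoblasts at 1 h, against 0.254% of all genes tested, with a median log2 fold change of 0.37 over the list against 0.00 over all genes tested. These were Egr1 (1.40, SE 0.03), Nr4a1 (1.08, SE 0.08), Dusp1 (0.98, SE 0.04), Cyr61 (0.81, SE 0.03), Ier3 (0.71, SE 0.10) and Ctgf (0.65, SE 0.07), all log2 fold changes. In differentiated cells at 1 h, 2 were called (Cyr61 and Dusp1), against 0.0901% of all genes, with a median of 0.90. Without replicate 4, 7 were called, against 0.172%, with a median of 0.49. Egr1 was lower in stretched myoblasts at 3 h (log2 fold change -0.63, SE 0.05, edgeR adjusted p = 4.75e-06), 1 of 2 list genes called downregulated there, against 1.25% of all genes. The list as a whole did not fall at 3 h. In myoblasts 13 of the 20 had a positive log2 fold change, with a median of 0.08. In differentiated cells 15 did, with a median of 0.18, and 2 were called upregulated, against 0.89% of all genes. At 6 h the median of the list was -0.02 in myoblasts and -0.11 in differentiated cells. There, 1 gene was called upregulated in myoblasts, against 1.35% of all genes, and 1 downregulated in differentiated cells, against 1.52%. By an edgeR adjusted p-value under 0.05 alone, 3 were higher and 8 lower in myoblasts, against 14.1% and 13% of all genes. In differentiated cells 2 were higher and 8 lower, against 11.5% and 10.8%.

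Of 16 textbook targets of AP-1, 12 were tested, and more of them were called at 3 h than at 1 h, as was also so for all genes. With both limits edgeR called 0 at 1 h in either stage, against 0.254% of all genes in myoblasts and 0.0901% in differentiated cells. With an edgeR adjusted p-value under 0.05 alone, 5 had a positive effect in myoblasts, against 1.67% of all genes, and 0 in differentiated cells, against 0.193%. At an unadjusted edgeR p-value under 0.05, 8 and 6 had one. At 3 h, 3 were called upregulated in each stage, against 0.459% and 0.89% of all genes, and all 12 had a positive log2 fold change, with medians of 0.19 in myoblasts and 0.36 in differentiated cells. Those called in myoblasts were Ccl2, a chemokine (0.95, SE 0.04), Mmp10, a matrix protease (0.96, SE 0.20), and Hmox1, heme oxygenase (0.68, SE 0.05), and in differentiated cells Hbegf, a growth factor (0.79, SE 0.07), Ccl2 (0.76, SE 0.13) and Plau, a plasminogen activator (0.74, SE 0.06). At 6 h, Ccl2 alone was called, in both stages (0.76, SE 0.08, and 0.59, SE 0.16), against 1.35% and 0.518% of all genes. By an edgeR adjusted p-value under 0.05 alone, 1 target was higher and 4 lower in myoblasts at 6 h, against 14.1% and 13% of all genes. In differentiated cells 3 were higher and 1 lower, against 11.5% and 10.8%.

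The partners and the upstream factors moved less. Of 12 other bZIP genes, 9 were tested in myoblasts and 10 in differentiated cells. Maf was called downregulated in myoblasts at 1 h (log2 fold change -0.66, SE 0.11, edgeR adjusted p = 0.00482), and Bach2, a repressor that pairs with small Maf proteins, was called upregulated at 3 h (0.74, SE 0.15) and downregulated at 6 h (-1.07, SE 0.23). Mafk, a small Maf gene like Maff, was picked with Srf after their values were seen. It had a positive effect with an edgeR adjusted p-value under 0.05 in 5 of the 6 comparisons, with log2 fold changes of 0.12 to 0.36. In these 5 comparisons, 1.67% to 16% of all genes had such an effect. Of 18 kinases and factors upstream of AP-1, 0 were called in any of the 6 comparisons by edgeR, where 2 to 5 were higher and 0 to 7 lower at an unadjusted p-value under 0.05. At an edgeR adjusted p-value under 0.05 alone, 0 to 3 were higher, against 0.193% to 16% of all genes. By the same limit 0 to 5 were lower, against 0.47% to 15.8%. Srf, the serum response factor, had log2 fold changes of 0.18 at 1 h and 0.15 at 3 h in myoblasts and of 0.27 at 3 h in differentiated cells, with edgeR adjusted p-values of 0.00127 to 0.0387.

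The genes most like Fos, Fosl1 and Atf3 were taken by Pearson's r of log2 CPM over the 24 libraries of a stage, which share their groups and codes, leaving out genes whose mean was under 100 counts. In myoblasts they were Dusp1 (r = 0.969), Sgk1 (0.931) and Nr4a1 (0.904) for Fos, Cdv3 (0.923), Map2k3 (0.920) and Kcnn4 (0.917) for Fosl1, and Trib1 (0.910), Klf6 (0.901) and Mafk (0.899) for Atf3. In differentiated cells without replicate 4 (23 libraries), Nr4a1 (0.946), Plk2 (0.937) and Trib1 (0.932) were nearest to Fos, Hnrnpk (0.947), Cnbp (0.946) and Ifrd1 (0.946) to Fosl1, and Ppp1r15a (0.920), Klf6 (0.876) and Sgk1 (0.856) to Atf3. Among the members themselves, Fos went with Fosb (r = 0.902 in myoblasts and 0.886 in differentiated cells without replicate 4) and less with Fosl1 (0.204 and -0.0981). These correlations are descriptions without a test.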

How the data were processed

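RNA was measured in 48 libraries of C2C12 cells, 4 in each of 12 groups. The labels give the molecule as nuclear RNA. The study's methods instead describe RNA extracted from washed cells, with no step that isolates nuclei, and a stranded mRNA library. Why the labels differ from the methods could not be told. The deposited values are estimated counts per gene symbol: per the labels and methods, the authors aligned reads to mm10 with STAR and quantified transcripts with Salmon, and the deposited tables hold whole numbers, 1 column for each library, not normalized. The annotation release and the strand setting are not given in the sources used here. Estimated counts split reads between transcripts, so overlapping genes can exchange counts.

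The counts of 47480 symbols in each table were fitted with edgeR 4.0.16 (TMM scaling, filterByExpr, quasi-likelihood test) in R 4.3.3, on the 8 libraries of a stage and time. Calls needed a Benjamini-Hochberg adjusted p-value under 0.05 over all genes tested and an absolute log2 fold change of at least 0.58. Changes of the effect with time used the 24 libraries of a stage, and differences between stages the 16 libraries of a time, at the adjusted p-value alone. The standard error is the log2 fold change divided by the square root of the F statistic. CPM used TMM scaling over 24 libraries of a stage, log2 CPM a prior count of 1, and CPM per kb the longest principal transcript of GENCODE on mm10. Promoter windows came from RefSeq.

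Totals were 48447318 to 77080730 counts. The counting error at a group's mean count was at most 5.43% for the members other than Fos, Fosb and Batf3. It reached 10.2% for Fos and 10.6% for Fosb. Batf3 had too few counts for the tests of stretching at each time, and was tested only in the myoblast models of time and code. Deviations of same-numbered replicates correlated over 0.1 in 11 of 23 pairs (from -0.129 to 0.397), and since this did not hold for every pair, the numbers were not taken as pairs. No replicate libraries were alike within sampling noise (chi-square per degree of freedom of at least 2.74). Alternatives were RLE scaling, other filters, the code as a covariate, the replicate block, glmTreat, DESeq2 1.42.0, all 24 libraries, no limit on the fold change, and each library left out. The fits were tested on simulated counts. The members, the gene lists and the tests were chosen with earlier results of these data known. Besides the members, list genes are named where they were called in at least 1 comparison, up to 8 for each list, and the 3 genes nearest to Fos, Fosl1 and Atf3 are given.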

Additional observations from a re-analysis of the deposited data

Results flagged for a closer look

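In 13 of 120 groups of 4 libraries, 1 library lay far from the other 3 by Dixon's criterion, which chance flags in about 1 of 20 groups. In differentiated cells stretched for 1 h, replicate 4 accounted for 5 of them, as the highest library for Fos (86.9 CPM, the next at 30.7), Fosb (65.0, next 21.5), Fosl1 (39.7, next 18.3), Junb (466, next 238.5) and Atf3 (44.5, next 16.5). In myoblasts, Jund was lowest in non-stretched replicate 9 at 3 h (163.5 CPM) and highest in stretched replicate 8 at 6 h (197.3 CPM), and Atf3 was highest in non-stretched replicate 10 at 1 h (11.9 CPM). In differentiated cells, Jun was highest in non-stretched replicate 10 at 1 h (173.5 CPM) and Maff in stretched replicate 8 at 6 h (28.3 CPM). Batf3, with at most 5 counts there, was highest in stretched replicate 10 at 3 h (0.0934 CPM), non-stretched replicate 8 at 6 h (0.0836 CPM) and stretched replicate 7 at 6 h (0.0649 CPM).

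The stretch effect differed between stages or times, by edgeR's test of the interaction, in 30 instances, all values being differences of log2 fold changes. Between differentiated cells and myoblasts they were 0.66 for Fosl1, 0.56 for Atf3 and -0.24 for Fosl2 at 3 h, and 0.44 for Fosl1, 0.34 for Maff and -0.40 for Junb at 6 h. In differentiated cells, from 1 h to 3 h, the effect changed by -3.23 for Fos, -3.24 for Fosb, -0.43 for Fosl2 and -0.49 for Jun. From 1 h to 6 h it changed by -3.19 for Fos, -4.20 for Fosb, -0.47 for Fosl2, -0.40 for Jun, -0.81 for Junb and -1.37 for Atf3, and from 3 h to 6 h by -0.75 for Junb.

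In myoblasts, from 1 h to 3 h, the effect changed by -2.41 for Fos, -1.38 for Fosb, -0.17 for Jun and -0.65 for Atf3. From 1 h to 6 h it changed by -2.11 for Fos, -2.11 for Fosb, -0.22 for Junb, -0.40 for Atf3 and -0.29 for Maff. From 3 h to 6 h it changed by -0.73 for Fosb, -0.31 for Junb, -0.27 for Maff and 0.26 for Jun. The differentiated values from 1 h rest on a group that includes replicate 4.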

How the results depend on the processing

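The effects of Fos and Fosb at 1 h kept their direction under every alternative run. With no limit on the fold change, 5 members rose and 1 fell in myoblasts at 3 h, 3 rose in myoblasts at 6 h, 5 rose and 1 fell in differentiated cells at 3 h, and 3 rose and 3 fell at 6 h. glmTreat called 0 members in myoblasts at 3 h and, of the differentiated comparisons, 1 member at 1 h and 0 at either later time. The fit over all 24 libraries of a stage called 4 members upregulated at 1 h in differentiated cells, and 1 after 3 h. Without a filter on low counts, 0 members changed from 1 h to 3 h in non-stretched myoblasts. DESeq2 found 2 members with a larger effect in differentiated cells at 1 h and 2 with a smaller one at 6 h. Jun in myoblasts at 1 h was at -0.00262 on the log2 scale without a filter.

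With the replicate block, the effect rose between 3 h and 6 h for 2 members in myoblasts, and in the differentiated stage it rose between 1 h and 3 h for 1 and fell between 3 h and 6 h for 3. The block also called Atf3 in differentiated cells at 1 h (log2 fold change 1.10).

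When single libraries were left out, the members called in differentiated cells numbered 1 to 4 (1 h), 1 to 3 (3 h) and 0 to 1 (6 h). Members whose effect changed in myoblasts numbered 0 to 2 up and 3 to 4 down from 1 h to 3 h, 4 to 5 down from 1 h to 6 h and 1 to 2 up between 3 h and 6 h. The differentiated counts were 0 to 1 up and 4 to 5 down from 1 h to 3 h, 6 to 7 down from 1 h to 6 h and 0 to 2 down from 3 h to 6 h. Between stages they numbered 0 to 2 up at 1 h, 0 to 1 down at 3 h and 1 to 2 down at 6 h. In non-stretched myoblasts 0 to 1 rose and 0 to 2 fell from 1 h to 3 h, 0 to 1 fell from 1 h to 6 h, 1 to 3 were lower in B31 than in B27, and 0 to 1 were higher in B28 than in B25.

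Small effects changed sign. For myoblasts stretched for 1 h, left-out libraries gave ranges of -0.03756 to 0.0005922 for Fosl2, -0.01682 to 0.0182 for Jun and -0.1036 to 0.0284 for Jund. After 3 h the range was -0.06105 to 0.002661 for Jund, and after 6 h it was -0.03195 to 0.1148 for Fos and -0.07406 to 0.04607 for Fosb. In differentiated cells it was -0.008976 to 0.1354 for Jund at 1 h and -0.04491 to 0.01825 for Jun at 6 h. The cause of these changes was not tested. Depth limited Batf3, with at most 14 counts in a library, and small effects on Fos and Fosb, whose counting error reached 10.2% and 10.6% of a group's mean count.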
